A study of Mus musculus with 12 samples.

Results

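The endosomal and other Toll-like receptors (TLRs) were examined as 10 genes of the 46103 in the files, chosen by name: Tlr3, Tlr5, Tlr7, Tlr8, Tlr9 and Tlr13, the trafficking gene Unc93b1, and the cofactor genes Cd180, Ly86 and Ly96. Each was listed under a single feature, so no numbered copies had to be summed. RNA was measured in 12 libraries of 100 sorted cells, 3 in each of 4 groups. All cells were BCR-ABL1+ LSK cells, that is, without lineage markers and with Sca1 and c-Kit. DP cells carried the G0 marker (G0M) and CD27, and SP cells carried CD27 without G0M. Both came from vehicle-treated mice with a chronic myeloid leukemia (CML)-like disease. IMDP and IMSP cells were the same populations after daily gavage with imatinib, which blocks the kinase of BCR-ABL1. All 4 groups had the same genetics. The donor mice, on the C57BL/6 background, carried a Cre-inducible G0M at Rosa26 and Vav1-Cre, which is active in blood cells. Marrow of 5FU-treated donors was infected with a retrovirus carrying BCR-ABL1 and GFP. It was given to lethally irradiated C57BL/6 recipients together with normal marrow. G0M is the fluorescent protein mVenus fused to a p27 mutant that does not inhibit Cdk, and BCR-ABL1 came from the virus rather than from its own locus. The mice were young females. The labels give bone marrow and spleen as the tissue of every library. They do not say whether libraries of a group came from separate mice, so the p-values measure the spread between these libraries only. All imatinib libraries carry library numbers below those of the vehicle libraries, so treatment and library number cannot be told apart.

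TLR3, TLR7, TLR8, TLR9 and TLR13 sense nucleic acids inside endosomes, and UNC93B1 is the chaperone that escorts them there from the endoplasmic reticulum. TLR5 sits at the cell surface and recognizes bacterial flagellin. CD180 (RP105) is a TLR-like surface receptor that is displayed together with MD-1, the product of Ly86. MD-2, the product of Ly96, is the subunit of the TLR4 complex that binds lipopolysaccharide. In blood these genes are known mainly from B cells, macrophages, monocytes and dendritic cells.

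The deposited values are RPKM, reads scaled to transcript length and library total. For genes found in several libraries, the steps of the values gave back the reads behind them. The total was 11367631 to 20573779 reads per library, with 25.2% to 36.1% on listed genes. A single read on a transcript of 1 kb equalled 0.0486 to 0.088 RPKM. The sorted markers were found in every library, with Cd27 at 12.2 to 21.4 RPKM, Kit at 16.8 to 39.8 RPKM and Ly6a at 3.12 to 20.8 RPKM. Mki67, a gene of dividing cells, spanned 10.9 to 21.2 RPKM in DP cells, 50.8 to 57.7 in SP cells, 7.18 to 10.1 in IMDP cells and 54.5 to 70.6 in IMSP cells. IMSP replicate 3 stood apart from the other libraries in several genes described here, with Csf1r, the receptor of the macrophage growth factor, at 28.7 RPKM against 0.504 to 9.43 RPKM in the other 11 libraries. Several results that rest on it are also given without it, but not all of them.

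The stretches before the starts of Ly86, Cd180, Tlr8 and Tlr9 are shown because Ly86, Tlr8 and Tlr9 had their highest values in the same library and Cd180 was lower in the G0M+ member of every pair of neighbouring libraries. They are RefSeq sequences of GRCm38.p6, 5′ to 3′ on the gene's strand, kept outside the genes as GENCODE annotates them, which shortens that of Ly86, and 7 of the 10 genes had an entry.
Ly86 (chr13:37345095-37345207, + strand): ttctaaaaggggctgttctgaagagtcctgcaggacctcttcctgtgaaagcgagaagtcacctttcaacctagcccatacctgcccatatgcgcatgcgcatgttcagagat
Cd180 (chr13:102693308-102693557, + strand): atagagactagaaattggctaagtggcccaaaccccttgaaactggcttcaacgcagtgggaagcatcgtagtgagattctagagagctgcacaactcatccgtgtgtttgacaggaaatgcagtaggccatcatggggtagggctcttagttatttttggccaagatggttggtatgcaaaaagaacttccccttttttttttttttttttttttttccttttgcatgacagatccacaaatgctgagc
Tlr8 (chrX:167264330-167264579, - strand): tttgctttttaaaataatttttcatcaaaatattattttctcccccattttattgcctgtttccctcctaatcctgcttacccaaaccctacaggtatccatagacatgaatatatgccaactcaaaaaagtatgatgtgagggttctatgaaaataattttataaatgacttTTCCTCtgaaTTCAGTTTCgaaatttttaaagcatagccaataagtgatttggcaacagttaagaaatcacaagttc
Tlr9 (chr9:106222348-106222597, + strand): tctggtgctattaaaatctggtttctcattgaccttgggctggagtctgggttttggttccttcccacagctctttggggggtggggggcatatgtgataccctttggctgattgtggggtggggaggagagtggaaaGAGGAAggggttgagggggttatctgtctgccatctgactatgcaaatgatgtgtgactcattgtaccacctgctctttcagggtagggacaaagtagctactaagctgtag
Capitals mark matches, on either strand, to GAGGAA, a core of PU.1 sites, and GAAANNGAA, a form of interferon response element. The windows were also searched for GGAANNGAA, a composite of PU.1 and IRF sites, and for the NF-κB consensus, and no matches overlapped. Tlr9 held GAGGAA at positions -112 to -107 from its RefSeq start, and Tlr8 held it at -77 to -72 on the other strand and GAAANNGAA at -67 to -59, also on the other strand. None of these motifs was found in the windows of Ly86 and Cd180. In all 32851 windows of 250 bases of the table, GAGGAA was found in 23.3%, GAAANNGAA in 7.13%, GGAANNGAA in 6.99% and the NF-κB consensus in 3.90%.

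The 6 receptors were at low levels and the other 4 genes at higher ones. In the mean over 12 libraries, Unc93b1 had 9.35 RPKM, Ly86 3.59, Cd180 1.58 and Ly96 0.703, and the 6 receptors had 0.187 (Tlr9), 0.123 (Tlr7), 0.0762 (Tlr3), 0.0555 (Tlr13), 0.0494 (Tlr8) and 0.0254 RPKM (Tlr5). Unc93b1 exceeded Ly86 in all 12 libraries, whereas Ly86 exceeded Cd180 in only 6, so the order of that pair did not hold beyond the spread. Cd180 exceeded Ly96 in 9 libraries and Ly96 exceeded Tlr9 in 10. Among the 6 receptors, neighbours in this order were in that order in 4 to 9 of the 12 libraries, which does not rank them beyond their spread. The 85.3rd percentile of all genes above 0 was reached by Unc93b1, against the 29.4th by Tlr9 and the 15.4th by Tlr5. For comparison, Tlr2 had 1.79 RPKM, Tlr4 0.994, Tlr6 0.735, Tlr12 0.560, Cd14 0.278, Tlr1 0.202 and Tlr11 0.0167 RPKM in the mean, all but Tlr11 above each of the 6 receptors.

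**Figure D1:**
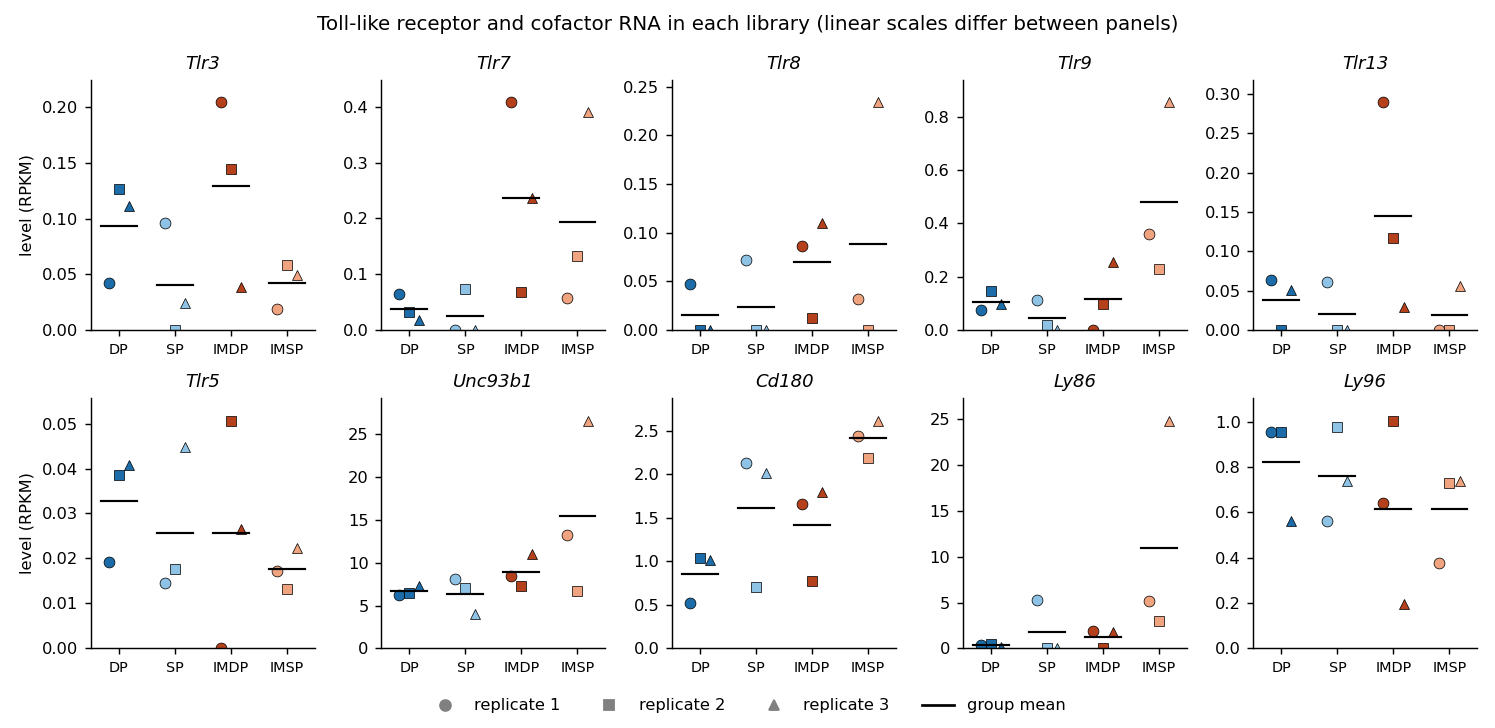
RPKM (vertical axis, linear from 0, with its own range in each panel) of the 10 genes in each library, grouped as DP, SP, IMDP and IMSP on the horizontal axis; symbols are single libraries and lines are means of 3. Cd180 and Ly86 were lower in each IMDP library than in each IMSP library, groups that 39% of the genes that passed the filter separated in either direction. IMSP replicate 3 held the highest value of Unc93b1 (26.5), Ly86 (24.8), Tlr9 (0.855) and Tlr8 (0.234).

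The 6 receptors rested on few reads. All 12 libraries together held 403 reads on them, and 33 of their 72 values came from 3 reads or fewer. Among these 16 values were 0, and only 1 value exceeded 0.5 RPKM. PCR copies were not marked, so limits drawn from reads cover counting error only. Tlr9, the receptor of unmethylated CpG DNA (chromosome 9, 106222598 to 106226883), had 0.0736, 0.147 and 0.0974 RPKM in DP cells, 0.112, 0.0170 and 0 in SP cells, 0, 0.0968 and 0.255 in IMDP cells and 0.361, 0.228 and 0.855 in IMSP cells (replicates 1 to 3). The 3 IMSP libraries were above the 3 SP libraries, a separation in either direction that 11.1% of all genes above 0 showed, while IMSP and IMDP overlapped. For this gene 3 reads, the most that a count of 0 allows, equalled 0.0642 RPKM in SP replicate 3 and 0.0669 RPKM in IMDP replicate 1. The reads on Tlr9 came to 17 in DP cells, 9 in SP cells, 20 in IMDP cells and 71 in IMSP cells, 40 of them in IMSP replicate 3.

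Tlr7, the receptor of single-stranded RNA (chromosome X, 167304929 to 167330558), had 0.0641, 0.0321 and 0.0170 RPKM in DP cells, 0, 0.0740 and 0 in SP cells, 0.408, 0.0675 and 0.237 in IMDP cells and 0.0572, 0.133 and 0.391 in IMSP cells. The IMDP libraries were above the DP libraries, a separation that 17.7% of all genes above 0 showed in either direction. The lowest IMDP and the highest DP value both rested on 4 reads, and IMSP overlapped SP. Tlr8, its neighbour on chromosome X (167242696 to 167264329) and also an RNA receptor, was at 0 in 5 libraries and had at most 0.0474 RPKM in DP cells, 0.0722 in SP cells, 0.110 in IMDP cells and 0.234 in IMSP cells. All groups overlapped. Its largest count, 17 reads, was again in IMSP replicate 3.

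Tlr3, the receptor of double-stranded RNA that signals without MYD88 (chromosome 8, 45395665 to 45411080), had 0.0421, 0.127 and 0.112 RPKM in DP cells, 0.0962, 0 and 0.0245 in SP cells, 0.204, 0.144 and 0.0390 in IMDP cells and 0.0188, 0.0581 and 0.0489 in IMSP cells. The G0M+ groups had the higher means, 0.0934 ± 0.0450 (SD, n = 3) in DP and 0.129 ± 0.0837 in IMDP against 0.0402 ± 0.05001 in SP and 0.0419 ± 0.0206 in IMSP cells, with overlap in both pairs. Tlr13, a receptor of bacterial ribosomal RNA (chromosome X, 106143204 to 106160493), reached 0.289, 0.117 and 0.0294 RPKM in the IMDP libraries on 15, 7 and 2 reads and 0, 0 and 0.0554 in the IMSP libraries, with 0 to 0.0636 in the vehicle libraries. Tlr5 (chromosome 1, 182954788 to 182976044) never exceeded 5 reads or 0.0506 RPKM, and no group stood out.

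**Figure D2:**
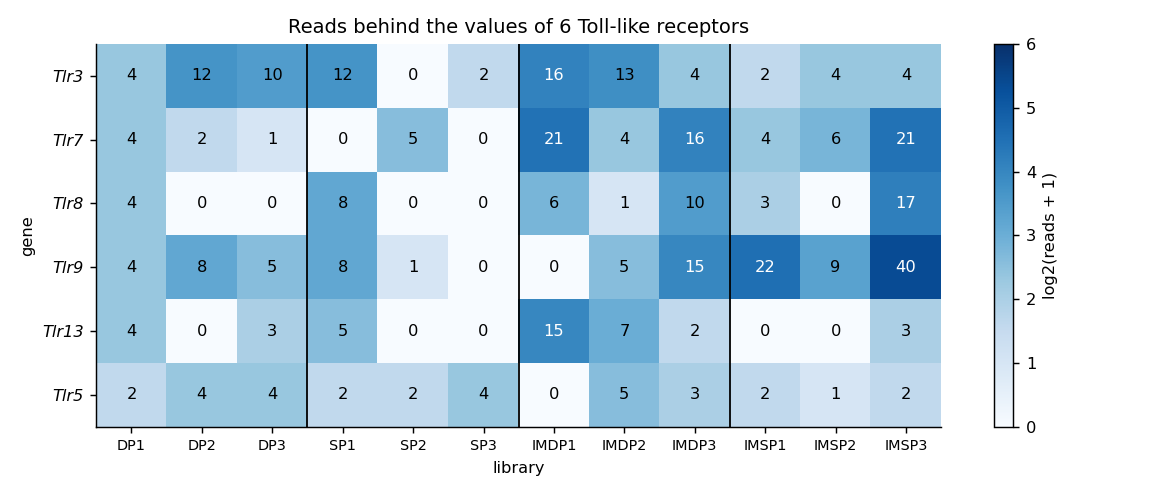
Reads behind the values of the 6 receptors (rows) in the 12 libraries (columns), with vertical lines between the groups; shading follows log2(reads + 1) and the numbers are reads. The counts run from 0 to 40, and the largest count of Tlr9 (40) and of Tlr8 (17) are in IMSP replicate 3.

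The summed level of the 6 receptors was 0.310 to 0.344 RPKM in DP cells, 0.0692 to 0.356 in SP cells, 0.489 to 0.988 in IMDP cells and 0.432 to 1.61 in IMSP cells. Each imatinib library was therefore above each vehicle library in this sum, which was formed after the values were seen and was not tested. How often sums of other genes separate so was not counted. The members differed, with mean Tlr9 at 0.106 RPKM in DP, 0.117 in IMDP and 0.481 in IMSP cells. Mean Tlr13 was 0.145 RPKM in IMDP and 0.0185 in IMSP cells. The same sum over Tlr1, Tlr2, Tlr4 and Tlr6 was 2.45 to 5.43 RPKM in DP cells, 2.79 to 3.79 in SP cells, 3.23 to 3.85 in IMDP cells and 3.85 to 4.81 in IMSP cells. As with every level measured here, more cells with a transcript and more RNA per cell cannot be told apart.

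Unc93b1 (chromosome 19, 3935186 to 3949340) was measured well in all libraries, with 121 to 810 reads. Its levels were 6.23, 6.51 and 7.31 RPKM in DP cells, 8.11, 7.00 and 3.97 in SP cells, 8.44, 7.24 and 11.0 in IMDP cells and 13.3, 6.64 and 26.5 in IMSP cells. The DP libraries lay close together, at 6.68 ± 0.560 RPKM (SD, n = 3), while the IMSP libraries spread over a wide range at 15.5 ± 10.1 RPKM. Every pair of groups overlapped. Unc93b1 was 1.11 ± 0.41 higher in IMSP than in SP cells as a difference of log2(RPKM + 0.1) with its SE (limma, adjusted p = 0.496, unadjusted p = 0.0180). It was 0.59 ± 0.41 lower in IMDP than in IMSP cells (limma, adjusted p = 0.293). Without IMSP replicate 3 these differences were 0.62 (limma, adjusted p = 0.684) and -0.10 (limma, adjusted p = 0.853). Without IMSP replicate 2 the latter was -1.09 and passed the threshold (limma, adjusted p = 0.0373).

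Cd180 (chromosome 13, 102693558 to 102739629) had 0.522, 1.04 and 1.02 RPKM in DP cells, 2.13, 0.710 and 2.01 in SP cells, 1.66, 0.780 and 1.80 in IMDP cells and 2.45, 2.19 and 2.61 in IMSP cells. The IMSP libraries were the highest and close to each other, above every IMDP and every SP library, and DP and SP overlapped. Of the genes that passed the filter, 39% and 13.8% separated these pairs of groups in either direction. Averaged over both treatments, Cd180 was 0.78 ± 0.30 lower on the log2 scale in the G0M+ cells (limma, adjusted p = 0.0695, unadjusted p = 0.0222), which did not pass the threshold of 0.05. The difference was -0.75 ± 0.42 in DP against SP (limma, adjusted p = 0.472) and -0.81 ± 0.42 between IMDP and IMSP cells (limma, adjusted p = 0.173). In all 6 pairs of neighbouring library numbers, which join a G0M+ and a G0M- library, the G0M+ library had less Cd180, by 0.38 to 1.38 on the log2 scale. With these pairs as a block the averaged difference passed (limma, adjusted p = 0.00497), as did IMDP against IMSP (limma, adjusted p = 0.0214). That fit called 46.9% and 44.1% of all genes in these comparisons. Leaving out SP replicate 2, the lowest of the G0M- libraries, also let the averaged difference pass (-1.02, limma, adjusted p = 0.0198). The last part of Cd180 overlaps Mast4 on the opposite strand (chromosome 13, 102732486 to 102739629), and the library kit does not mark strand. Mast4 had 0.650 to 2.27 RPKM, with group means of 1.41 in DP cells, 1.01 in SP cells, 1.63 in IMDP cells and 1.33 in IMSP cells.

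Ly86 (chromosome 13, 37345208 to 37419036) ranged from 0 to 24.8 RPKM. It had 0.320, 0.449 and 0.203 RPKM in DP cells, 5.31, 0 and 0.0745 in SP cells, 1.94, 0 and 1.84 in IMDP cells and 5.14, 3.00 and 24.8 in IMSP cells, on 0 to 333 reads. SP replicate 1 with 109 reads stood far from the other SP libraries with 0 and 1. The 3 IMSP libraries were above the 3 IMDP libraries, a separation in either direction that 39% of the genes that passed the filter showed. Ly86 passed the filter of 1 RPKM through 6 libraries, none of them DP. Ly86 was 3.33 ± 1.46 lower on the log2 scale in IMDP than in IMSP cells (limma, adjusted p = 0.112), and -2.46 without IMSP replicate 3 (limma, adjusted p = 0.294). Blocking on the replicate number, which pairs the imatinib libraries by their correlations, gave the same difference an adjusted p of 0.0488, and blocking on neighbouring library numbers 0.0321 (limma). Both blocks pair the imatinib libraries alike, so they are not separate checks. They called 29% and 44.1% of all genes in this comparison. IMSP exceeded SP cells by 4.02 ± 1.46 (limma, adjusted p = 0.492), or by 3.15 without IMSP replicate 3 (limma, adjusted p = 0.664). DP differed from SP cells by -0.14 ± 1.46, a difference that turned to 1.64 without SP replicate 1. The mean was lowest in DP cells for both Cd180 and Ly86, whose proteins are partners, at 0.861 ± 0.294 and 0.324 ± 0.123 RPKM (SD, n = 3). For Ly86 this rests on SP replicate 1, since the other SP libraries, at 0 and 0.0745, were below every DP library. The mean was highest in IMSP cells for both, at 2.42 ± 0.212 and 11.0 ± 12.0 RPKM. The size of the Ly86 mean rests on IMSP replicate 3. The other IMSP libraries, at 5.14 and 3.00, were still above the means of the other groups, up to 1.80 in SP cells.

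Ly96 (chromosome 1, 16688051 to 16709611) rested on 2 to 10 reads per library, with 0.953, 0.954 and 0.560 RPKM in DP cells, 0.564, 0.978 and 0.739 in SP cells, 0.642, 1.00 and 0.196 in IMDP cells and 0.377, 0.729 and 0.738 in IMSP cells. All groups overlapped. The largest difference between 2 groups was -0.53 ± 0.48 in IMDP against DP cells (limma without a filter, adjusted p = 0.635). Tlr4, which needs MD-2, had 0.555 to 1.86 RPKM over the 12 libraries.

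**Figure D3:**
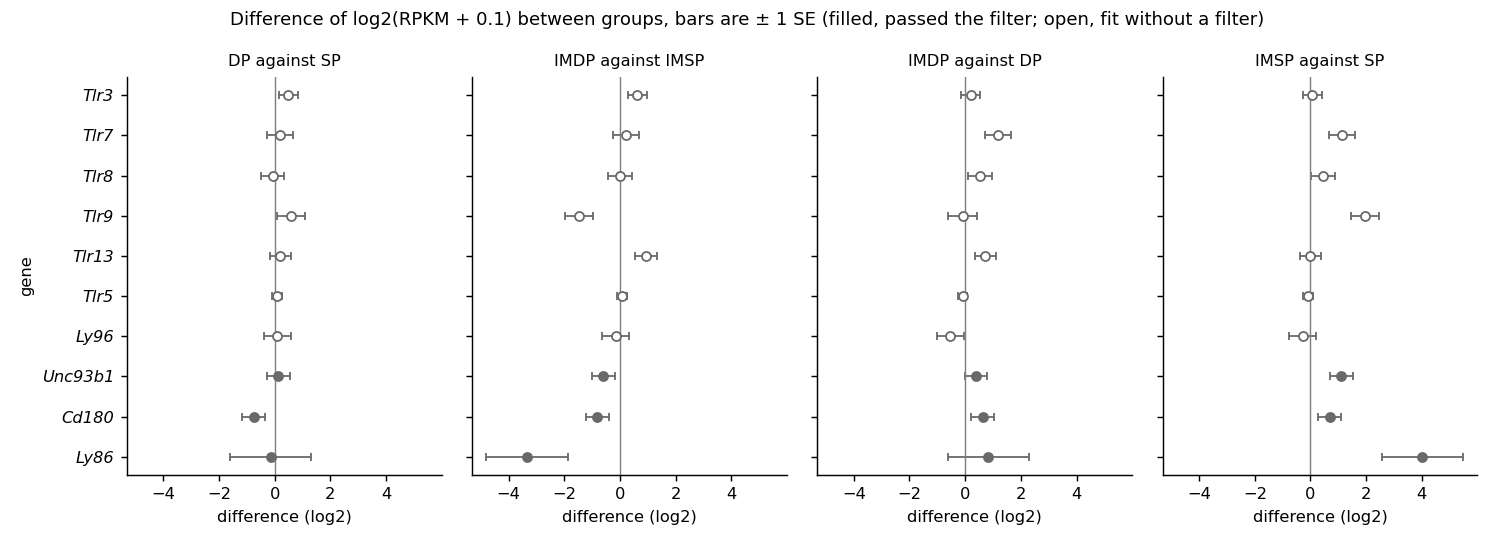
Difference of log2(RPKM + 0.1) between groups (horizontal axis) for the 10 genes (vertical axis) in the 4 pairwise comparisons, with bars of 1 SE; filled symbols passed the filter and open symbols are from the fit without a filter. The bars of Ly86 are the widest, at 1.46, and no gene passed the threshold in any panel.

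A limma fit with a mean per group covered the 10072 genes at 1 RPKM or more in 3 or more libraries, with p-values adjusted over all of them. In all, 3 of the 10 genes (Unc93b1, Cd180 and Ly86) passed this filter. The comparisons asked how G0M+ cells differed from G0M- cells with vehicle (DP against SP) and with imatinib (IMDP against IMSP). They also asked how imatinib cells differed from vehicle cells in each population (IMDP against DP, IMSP against SP), what the average over each pair was (population average, treatment average), and whether the pairs differed (interaction). None of the 3 genes was called in any of the 7 comparisons, and limma-voom on the recovered reads called none either. At an unadjusted p under 0.05 there were 0 in DP against SP, 1 in IMDP against IMSP (Ly86), 0 in IMDP against DP, 2 in IMSP against SP (Ly86 and Unc93b1), 1 in the population average (Cd180), 3 in the treatment average and 0 in the interaction. Among all genes tested, 2.26% were called in DP against SP, 25.6% in IMDP against IMSP (2.37% higher and 23.3% lower), 0.367% in IMDP against DP, 0% in IMSP against SP, 26.3% in the population average (5.32% higher and 21% lower), 0.854% in the treatment average and 0% in the interaction. At an unadjusted p under 0.05, as used for the counts of the 3 genes, the 10072 genes held 1328 in DP against SP, 3999 in IMDP against IMSP, 2061 in IMDP against DP and 845 in IMSP against SP. They held 4166 in the population average, 1811 in the treatment average and 937 in the interaction. In IMSP against SP and in the interaction limma-voom called 0 genes too. All genes had a median difference of -0.25 between IMDP and IMSP cells and of -0.17 to 0.08 in the other pairwise comparisons. The median of the 3 genes was -0.81 in IMDP against IMSP and 1.11 in IMSP against SP cells. In the treatment average Unc93b1 was 0.75 ± 0.29 higher with imatinib, Cd180 0.66 ± 0.30 and Ly86 2.43 ± 1.03 (limma, adjusted p = 0.201, 0.274 and 0.248). Without IMSP replicate 3 Unc93b1 was 0.50 and Ly86 1.99 higher.

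For the other 7 genes a fit of all 16776 genes above 0 was used, which again called none of the 10. At an unadjusted p under 0.05 there were 4 in IMSP against SP (Ly86, Tlr7, Tlr9 and Unc93b1), 2 in IMDP against IMSP (Tlr9 and Tlr13), 1 in IMDP against DP (Tlr7) and 0 in DP against SP. The 16776 genes held 1195, 4606, 2593 and 1800 at this p in these 4 comparisons. The averages held 2 of the 10 by population (Cd180 and Tlr3) and 4 by treatment (Ly86, Tlr7, Tlr9 and Unc93b1), against 4928 and 2416 of all genes, and the interaction 1 (Tlr9) against 1203. In this fit 1.2% of all genes were called in DP against SP, 12.8% in IMDP against IMSP, 0.197% in IMDP against DP, 0% in IMSP against SP, 13.8% in the population average, 0.274% in the treatment average and 0% in the interaction. Tlr9 was 1.95 ± 0.51 higher on the log2 scale in IMSP than in SP cells (limma, unadjusted p = 0.00272, adjusted p = 0.518) and 1.46 ± 0.51 lower in IMDP than in IMSP cells (limma, adjusted p = 0.0852). The latter was -1.02 without IMSP replicate 3 (limma, adjusted p = 0.244). Blocking on the replicate number gave -1.46 an adjusted p of 0.04999 (limma), just under the threshold, in a fit that called 14.2% of all genes there. The interaction of Tlr9 was -2.05 ± 0.72 (limma, unadjusted p = 0.0158, adjusted p = 0.639). Tlr7 was 1.14 ± 0.33 higher with imatinib in the average over both populations (limma, unadjusted p = 0.00560, adjusted p = 0.151), with 1.17 ± 0.47 in the G0M+ and 1.12 ± 0.47 in the G0M- cells. Tlr13 was 0.94 ± 0.38 higher in IMDP than in IMSP cells (limma, adjusted p = 0.134). Tlr3 was 0.56 ± 0.24 higher in G0M+ cells in the population average (limma, adjusted p = 0.140). These differences are on the log2(RPKM + 0.1) scale and understate ratios at such low levels.

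Counted by libraries, Cd180 and Ly86 were the genes of the 3 that separated IMDP from IMSP, against 39% of the 10072 genes. Cd180 was the one that separated IMSP from SP, against 13.8%. None of the 3 genes separated DP from SP, against 22.4%, or IMDP from DP, against 23.6%. Of the 7 genes below the filter only Tlr9 (IMSP above SP) and Tlr7 (IMDP above DP) were separated. Over all 16776 genes 11.1% and 17.7% were separated in these comparisons, 27.4% in IMDP against IMSP and 17.2% in DP against SP.

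The genes of the wider pathway were read from 8 lists of 77 genes, of which 62 were tested. In IMDP against IMSP cells 2 of them rose and 9 fell, which is 17.7% against the 25.6% of all genes. The trafficking and processing list had 15 tested genes, of which 6 fell and none rose, where 23.3% of all genes tested fell and 2.37% rose. Its median difference was -0.42 against -0.25 for all genes. Sec61a1, a subunit of the endoplasmic reticulum translocon, had 20.8 ± 1.64 RPKM in IMDP and 39.5 ± 5.83 in IMSP cells (difference -0.91 ± 0.17, limma, adjusted p = 0.00486). Lrrc59, which helps UNC93B1 move TLRs out of the endoplasmic reticulum, had 21.4 ± 4.93 and 46.4 ± 7.33 RPKM (-1.13 ± 0.22, limma, adjusted p = 0.00582). Hgs, of the endosomal sorting machinery, had 5.32 ± 0.295 and 8.43 ± 1.22 RPKM (-0.64 ± 0.15, limma, adjusted p = 0.0113). The other 3 were named after their values were seen. They were Hsp90b1 (gp96), the chaperone that folds most TLRs, at -1.35 ± 0.33, its co-chaperone Cnpy3 at -0.80 ± 0.20 and the related Cnpy4 at -0.59 ± 0.17 (limma, adjusted p = 0.0140, 0.0154 and 0.0295). Left-out libraries ended no call of Sec61a1, Lrrc59 and Hgs. Hsp90b1 and Cnpy3 were lost without IMDP replicate 2 or IMSP replicate 1 (limma, adjusted p up to 0.0680 and 0.0670). Cnpy4 was lost without IMDP replicate 2 or 3 or IMSP replicate 1 or 2 (up to 0.120). After scaling of the libraries to one median, Sec61a1, Lrrc59 and Hsp90b1 still passed and Hgs, Cnpy3 and Cnpy4 did not. In the average over treatments 5 of the 15 fell, the same genes without Cnpy4, and none rose, where 21% of all genes fell and 5.32% rose. In DP against SP cells none was called.

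Lysosomal nucleases and nucleoside transporters limit the nucleic acids that reach these receptors. The list also held Trex1 and Samhd1, which do not act in lysosomes. Of its 9 tested genes 2 rose in IMDP against IMSP cells and none fell, where 2.37% of all genes rose and 23.3% fell. Pld3, a lysosomal exonuclease, had 5.29 ± 1.77 RPKM in DP cells, 2.49 ± 0.376 in SP cells, 4.70 ± 0.979 in IMDP cells and 1.86 ± 0.796 in IMSP cells (difference 1.36 ± 0.31 for IMDP against IMSP, limma, adjusted p = 0.0108). Samhd1, a largely nuclear enzyme that degrades dNTPs, had 8.48 ± 0.430 RPKM in IMDP and 5.68 ± 1.24 in IMSP cells (0.59 ± 0.20, limma, adjusted p = 0.0444, or 0.0759 with the replicate block). Pld3 kept its call whichever library was left out, and Samhd1 lost it without any 1 of 8 libraries (limma, adjusted p up to 0.184). Both also rose in the population average (1.19 ± 0.22 and 0.58 ± 0.14, limma, adjusted p = 0.00353 and 0.0113), whichever library was left out.

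In IMDP against IMSP cells 23.3% of all genes tested fell and 2.37% rose, the shares against which the next counts stand. Of the 5 adaptors tested, Ticam2 (TRAM), which couples TLR4 to TRIF, fell in IMDP relative to IMSP cells (-0.95 ± 0.29, limma, adjusted p = 0.0322). It did not pass after median scaling (limma, adjusted p = 0.146) or without IMDP replicate 1 or 2 or IMSP replicate 1 or 3 (up to 0.121). Of 19 signal relay genes, Tollip and Map3k7 (TAK1) fell in this comparison (-0.64 ± 0.13 and -0.49 ± 0.16, limma, adjusted p = 0.00527 and 0.0400). Both were lost after median scaling (limma, adjusted p = 0.0739 and 0.268). In the population average, where 5.32% of all genes rose and 21% fell, Irak2 and Peli1 rose and Tollip fell (0.63 ± 0.20, 0.39 ± 0.13 and -0.34 ± 0.09, limma, adjusted p = 0.0365, 0.0430 and 0.0162). After median scaling Tollip did not pass here either (-0.19, limma, adjusted p = 0.153). With the replicate block Map3k7 did not pass in IMDP against IMSP (limma, adjusted p = 0.0654), nor did Irak2 and Peli1 in the population average (limma, adjusted p = 0.0710 and 0.0600). Map3k7, Irak2 and Peli1 were each lost without any 1 of 8 to 10 libraries (limma, adjusted p up to 0.152, 0.0873 and 0.109). Tollip kept both calls whichever library was left out. Tnfaip3 (A20), an NF-κB inhibitor that was named after its values were seen, fell with imatinib in the average over populations, from 58.1 ± 17.8 RPKM in DP and 36.6 ± 15.0 in SP to 13.7 ± 3.82 in IMDP and 9.93 ± 6.00 in IMSP cells (-2.04 ± 0.33, limma, adjusted p = 0.0210). Its adjusted p was 0.0767 with the replicate block and up to 0.0758 without DP replicate 2, SP replicate 1 or 3 or IMDP replicate 3 (limma). Of the 11 transcription factors only Irf7, which drives type I interferon genes below TLR7 and TLR9, was called. It rose in the population average (1.18 ± 0.34, limma, adjusted p = 0.0255), and its adjusted p was up to 0.0678 without DP replicate 3, SP replicate 2, IMDP replicate 2 or IMSP replicate 1. Irf7 had 4.13 ± 2.31 RPKM in DP cells, 1.82 ± 1.42 in SP cells, 3.53 ± 0.818 in IMDP cells and 1.61 ± 0.484 in IMSP cells. None of the 3 tested genes of the list of surface receptors and cofactors was called (Tlr2, Tlr4 and Lbp, which encodes the soluble lipopolysaccharide-binding protein). Of the interferon list, Ifna1, Ifna2, Ifna4 and Ifnb1 were below the filter, at 0.0848 to 0.151 RPKM in SP replicate 1 and 0 in the other 11 libraries. The reads behind a value found in a single library cannot be recovered. The Ifna genes are near copies of each other, so the gene of reads on them is uncertain.

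**Figure D4:**
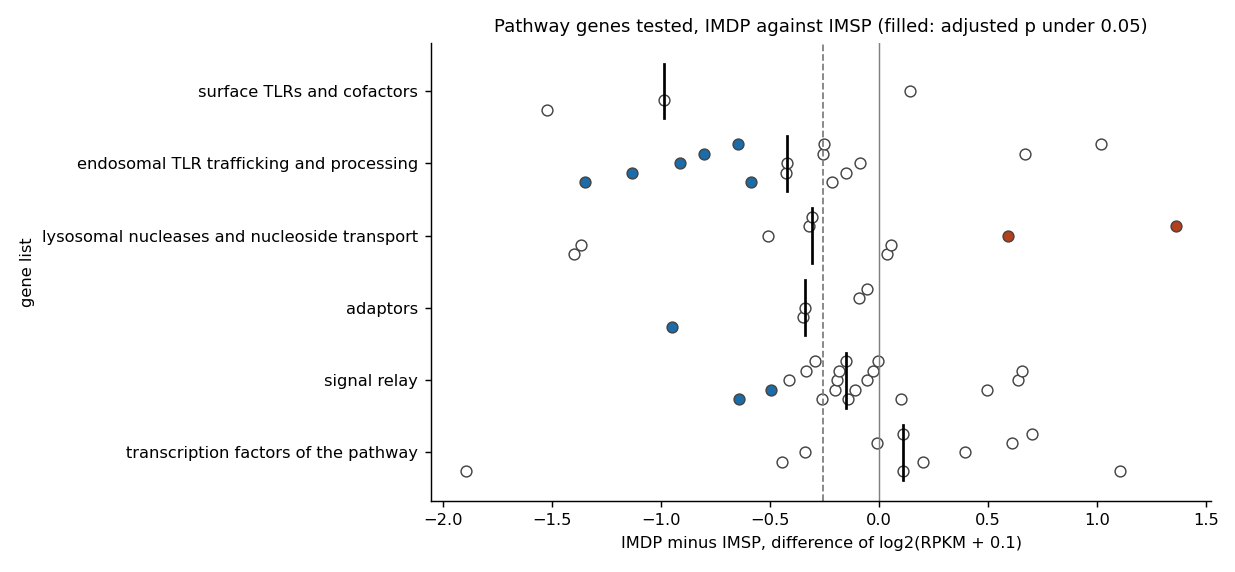
Difference of log2(RPKM + 0.1) between IMDP and IMSP cells (horizontal axis) for each tested gene of 6 pathway lists (vertical axis); filled symbols passed an adjusted p of 0.05 (blue, lower in IMDP; red, higher), thick bars are list medians and the dashed line is the median of all genes, -0.25. The 6 blue points of the trafficking list lie between -1.35 and -0.59.

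Likeness of pattern was described by Pearson's r of log2(RPKM + 0.1) over the 12 libraries among all 10072 genes, with no test, since libraries share a group and neighbouring library numbers varied together. The genes most like Ly86 were Irf8 (r = 0.98), Pcif1 (0.91) and Ccr2 (0.90). Without the 2 libraries farthest from its median (IMDP replicate 2 and IMSP replicate 3) r was 0.96, 0.88 and 0.82. Irf8, a transcription factor of monocytes, dendritic cells and B cells, had 1.67, 2.12 and 2.42 RPKM in DP cells, 9.13, 1.05 and 1.56 in SP cells, 4.08, 0.841 and 5.12 in IMDP cells and 10.4, 4.66 and 20.9 in IMSP cells. It was thus high in the libraries that were high in Ly86, SP replicate 1 included, and lowest in the 2 libraries with no Ly86 read. The genes most like Unc93b1 were Hpse (0.94), Mpeg1 (0.91) and Gm39972 (0.91), with r of 0.78, 0.66 and 0.79 without IMSP replicate 3 and SP replicate 3. Those most like Cd180 were Aen (0.90), Asxl1 (0.88) and Med16 (0.88), with r of 0.81, 0.90 and 0.88 without DP replicate 1 and SP replicate 2. Among the 10 genes, r was 0.77 for Cd180 and Ly86, 0.83 for Unc93b1 and Tlr9 and 0.80 for Unc93b1 and Tlr8. Without IMSP replicate 3 these values were 0.74, 0.65 and 0.56.

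**Figure D5:**
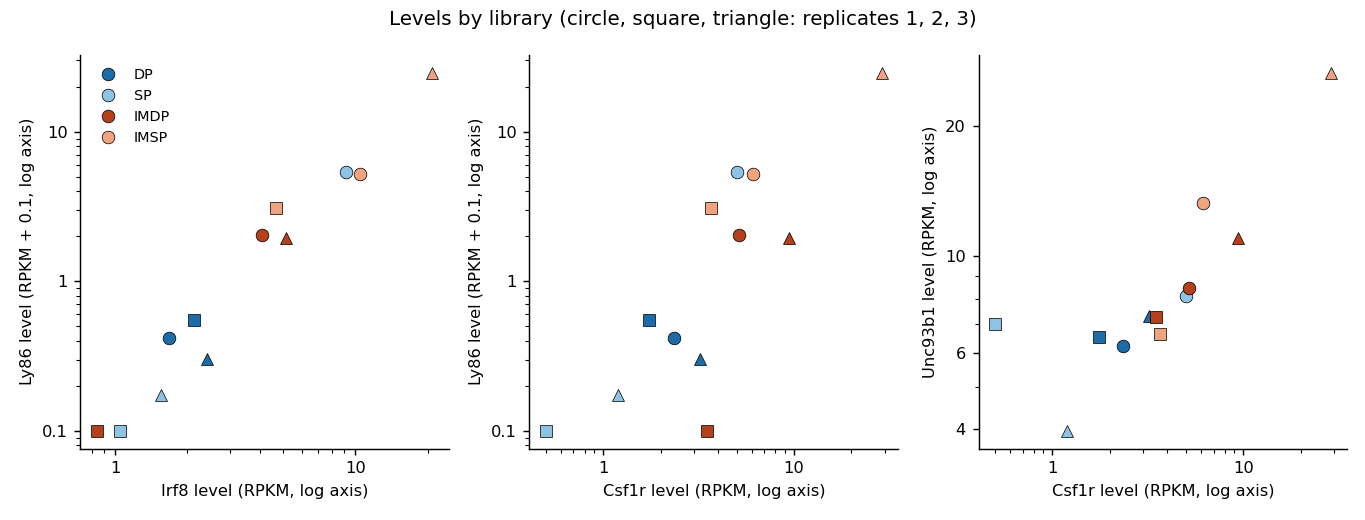
Levels in the 12 libraries on logarithmic axes: Ly86 (RPKM + 0.1) against Irf8, Ly86 against Csf1r and Unc93b1 against Csf1r, with colours for the groups and symbols for replicates. Ly86 and Irf8 ordered the libraries similarly, from 0.841 to 20.9 RPKM of Irf8, and IMSP replicate 3 is at the upper right of each panel.

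Markers of cells that carry these receptors were read in the same libraries. Of 12 macrophage and monocyte markers 10 reached 1 RPKM in some library. The sum of the list was 31.0 to 46.2 RPKM in DP cells, 19.5 to 46.8 in SP cells, 55.0 to 71.1 in IMDP cells and 44.0 to 91.8 in IMSP cells, with 91.8 in IMSP replicate 3. Csf1r had 2.44 ± 0.740 RPKM in DP cells, 2.25 ± 2.45 in SP cells, 6.03 ± 3.07 in IMDP cells and 12.8 ± 13.8 in IMSP cells. The IMSP mean rests on replicate 3, at 28.7 RPKM. IMSP replicates 1 and 2, at 6.13 and 3.65, were within the IMDP range of 3.48 to 9.43. The r of Csf1r with Ly86 was 0.83 (0.74 without IMSP replicate 3). C1qa, C1qb and C1qc were at 0 in all SP and IMSP libraries, IMSP replicate 3 included, at 0 to 1.65 RPKM in the DP libraries and at 0.501 to 1.65 RPKM in the IMDP libraries. Lyz2 and Csf1r were above 0 in all 12 libraries. Of 10 plasmacytoid dendritic cell markers 2 reached 1 RPKM, Klk1 was at 0 throughout and the sum was 15.1 to 26.4 RPKM over all libraries. Most of this sum was Bst2, with group means of 12.6 to 22.2 RPKM. Of 10 B cell markers 1 reached 1 RPKM, Ms4a1, Ebf1 and Pax5 were at 0 in all 12 libraries, and the sum was 1.78 to 4.55 RPKM. Most of this sum was Cd79b, with group means of 2.42 to 3.18 RPKM. Conventional dendritic cell markers (5 of 10 at 1 RPKM) summed to 16.2 to 91.2 RPKM in DP cells, 7.93 to 34.1 in SP cells, 13.6 to 58.2 in IMDP cells and 7.24 to 15.0 in IMSP cells. Neutrophil markers (6 of 10, Retnlg at 0) summed to 50.8 to 1169 RPKM in DP cells, 316.0 to 2190 in SP cells, 60.8 to 232.2 in IMDP cells and 418.6 to 1782 in IMSP cells. Mpo, Elane and Prtn3 made up most of these sums, with Mpo at group means of 107.8 to 779.4 RPKM. Ltf, Ngp, Camp and Mmp8 had group means of 0 to 0.561 RPKM. Mast cell and basophil markers (10 of 10) summed to 94.1 to 347.6 RPKM in DP cells, 23.8 to 29.4 in SP cells, 27.2 to 210.4 in IMDP cells and 19.2 to 32.1 in IMSP cells. T cell markers (2 of 8, Trac at 0) summed to 1.26 to 9.43 RPKM and erythroid markers (7 of 8) to 11.2 to 277.3 RPKM over all libraries. All 10 stem and progenitor markers reached 1 RPKM, with sums of 135.0 to 245.8 RPKM. The part of these cells in the levels of Ly86, Unc93b1, Tlr8 and Tlr9 was not tested.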

How the data were processed

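RNA-seq of 12 libraries of mouse CML stem and progenitor cells was used, with groups and replicate numbers from the sample titles. The authors mapped reads to GRCm38 with CLC Genomics Workbench, per the methods (the reporting summary names HISAT2 and featureCounts), used edgeR for their statistics, and deposited RPKM per feature and library (48737 features). Reads were recovered from the steps of the RPKM values, and 17732 of 17735 features above 0 gave whole reads in every library (tolerance 0.01 reads). A feature above 0 in only 1 library does so whatever its reads. Of 13755 features above 0 in 8 or more libraries, 99.97% gave lengths of whole bases, which the totals were tuned to give. Lengths were within 1% of the annotated exon length for 7.70% of 12675 features.

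Numbered copies were summed, and genes of at least 1 RPKM in at least 3 libraries entered a limma fit (limma 3.58.1, R 4.3.3) of log2(RPKM + 0.1). The model held 4 group means, a trended moderated variance and Benjamini-Hochberg adjustment over all genes (threshold 0.05). The fit was tested on simulated data. Figures were drawn with Python 3.11.15 and matplotlib 3.10.9. Positions are GENCODE M21 (GRCm38).

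Genes named are the 10 genes, the other TLRs and Cd14, of each pathway list up to 3 called genes, taken by adjusted p, in the pairwise comparisons and the population average, the 3 genes with the highest r for each of the 10 that passed the filter, and Mki67, Kit, Ly6a and Cd27; others, Tnfaip3, the interferon genes and the marker genes included, were named after their values were seen. Mast4 is named as an overlapping gene. The genes and lists were chosen with earlier results of these data known. Alternatives changed the pseudocount, filter, block, groups in the fit, scaling, model (limma-voom) and library left out. Deviations of IMDP and IMSP libraries with the same replicate number correlated at 0.43 to 0.65, so these numbers pair them, whereas DP and SP libraries correlated at -0.30 to -0.10 by replicate number and at 0.50 to 0.52 by neighbouring library number.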

Additional observations from a re-analysis of the deposited data

How the results depend on the processing

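Counts of called genes among the 10 (3 tested under the filter) were 0, as reported, in 129 of 134 alternative fits and comparisons. In IMDP against IMSP cells the count was 1 with the replicate block (Ly86), 2 with the library-number block (Cd180 and Ly86) and 0 to 1 when 1 library was left out, and in the population average 1 with the library-number block (Cd180) and 0 to 1 when 1 library was left out. The blocked counts are over the filtered genes. In the fit without a filter, blocked after seeing the data, Tlr9 also passed in IMDP against IMSP (-1.46) with the replicate block (adjusted p = 0.04999) and the library-number block (0.0253, limma). These fits called 14.2% and 24.6% of all genes there, and both pair the imatinib libraries alike. The replicate block changed no other call of the 10 genes. Signs of small differences turned as follows. After median scaling Cd180 had 0.17 in the interaction, Tlr8 0.061 and Ly96 0.075 in IMDP against IMSP, and Ly96 0.10 in the population average. With a pseudocount of 1 Ly96 had 0.012 in the population average. Under limma-voom Ly86 had 0.11 in DP against SP (0.14 with genes of at least 5 reads in 3 libraries, chosen after seeing the data), and Tlr8 had 0.43 in IMDP against IMSP and 0.062 in the population average. With 1 library left out, Tlr5 (-0.062 to 0.23), Tlr7 (-0.14 to 0.68), Tlr8 (-0.36 to 0.51) and Ly96 (-0.56 to 0.39) crossed 0 in IMDP against IMSP. In the population average Tlr8 (-0.22 to 0.22), Ly96 (-0.23 to 0.24) and Unc93b1 (-0.48 to 0.016) did, in DP against SP Unc93b1 (-0.17 to 0.33) and Ly86 (-1.24 to 1.64), and in the interaction Cd180 (-0.34 to 0.42). The causes were not tested. Values for the 7 genes below the filter come from the fit without a filter.

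Counts over all genes moved too. IMDP against IMSP went from 2581 (239 higher) to 1560 (635 higher) after median scaling and to 4446 with the library-number block, DP against SP from 228 to 980 with that block, IMDP against DP from 37 to 0 with the replicate block, 2 after median scaling and 8 under limma-voom, and the treatment average from 86 to 16 with the replicate block and 162 after median scaling. With 1 library left out they ranged over 125 to 264 in DP against SP, 902 to 2962 in IMDP against IMSP, 0 to 189 in IMDP against DP, 1583 to 3061 in the population average and 12 to 143 in the treatment average. Depth limits Tlr5, Tlr8 and Tlr13 most, with 31, 49 and 39 reads over all 12 libraries.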
